A study of Homo sapiens with 6 samples.

Results

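The cadherins and protocadherins were followed in A172, an established human glioblastoma cell line, with and without added RBFOX1, an RNA-binding protein that recognises the motif written TGCATG in DNA letters. Members were the protein-coding genes whose symbol is CDH followed by digits or PCDH followed by letters or digits. There were 89 such genes among the 58051 genes listed, and the 76 whose counts over the 6 libraries came to 10 or more were among the 20536 genes tested. Control cells carried a lentiviral construct for GFP (pLX317-GFP) and the other cells the matching construct for RBFOX1 (pLX317-RBFOX1), with 3 libraries of each, described by the authors as biological replicates of stable lines. Both groups were therefore transduced cells, untransduced A172 cells were not among the samples, and the labels do not say whether the replicates came from separate infections.

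Cadherins are transmembrane proteins whose extracellular repeats bind calcium and, in most cases, a cadherin of the same kind on the next cell. Classical cadherins hold the actin cytoskeleton through catenins, and type I and type II cadherins differ in how their outermost repeats engage. Protocadherins lack the catenin-binding tail, and the genes of the PCDHA, PCDHB and PCDHG clusters, which lie one after another on chromosome 5, give neurons surface identities through the choice of promoters. In gliomas, CDH2 (N-cadherin) and CDH11 are known from mesenchymal-like, motile cells, whereas CDH1 (E-cadherin) marks epithelia.

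RBFOX1 itself had 4, 0 and 1 counts in the GFP libraries and 10276, 16467 and 21451 in the RBFOX1 libraries, so the labels and the data went together for the introduced gene. Counts on genes summed to between 7433414 and 23249221 per library. RBFOX1 replicate 1 was the shallowest library, and 3 counts there were worth 5.44 normalized counts, against 1.82 in GFP replicate 1. A normalized count is the count divided by the library's TMM-scaled size and multiplied by the mean of those sizes. Of the 7 glioma and mesenchymal markers examined, 6 had a mean of at least 10 normalized counts, with vimentin the most abundant and GFAP near 0. Of these 7, 2 rose (SOX2 by 2.53 and NES by 0.60 on the log2 scale) and 4 fell (among them CD44, with -0.90, and vimentin, VIM, with -0.65), and their summed level went from between 77631 and 79174 normalized counts to between 51635 and 52338. Of 5 neuronal markers 3 were tested and 2 rose, MAP2 (1.52) and SYP (1.59), the summed level going from between 181 and 189 to between 381 and 495, with RBFOX3 and SNAP25 near 0. Of 3 blood cell markers 2 were tested and 1, PTPRC, rose (1.82), the sum going from between 12.8 and 25.5 to between 52.6 and 68.5, with CD3E at 0. For scale, 30.3% of protein-coding genes tested rose and 28.8% fell. The part of these markers in the results below was not tested.

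Of the 76 members tested, 13 rose and 21 fell with RBFOX1, together 44.7%, taking an adjusted p under 0.05 in edgeR as the threshold. Over all genes tested 46.6% passed, 23.7% as higher and 22.9% as lower, and over protein-coding genes alone 59.1% passed. The members as a whole were thus not called more often than other genes. In 35 of the 76 members the 3 RBFOX1 libraries all lay above or all below the 3 GFP libraries. The same held for 10965 of the 20536 genes tested (53.4%) and for 9104 of the 14094 protein-coding genes tested. Calls were more frequent among abundant members, where 21 of the 27 members with a mean of at least 50 normalized counts were called, against 13 of the 49 below it. The median log2 fold change of the members was -0.03, and that of all genes tested was 0.01.

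Of the other 13 members, 8 had no count in any library, namely CDH16, CDH17, CDH19, PCDH8, PCDH11X, PCDH11Y, PCDH19 and PCDH20. Of the 5105 exon bases of the PCDH20 transcript only 446 could give counts, so little of it was measured. PCDH11X and PCDH11Y are near-identical copies, so reads from either could have been left out as mapping to both. CDH6, CDH7, CDH9, CDH20 and CDH22 had between 1 and 8 counts over the 6 libraries and were not tested.

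Among the classical type I cadherins the N-cadherin gene stayed the most abundant while R-cadherin fell about 4-fold. CDH2 (ENSG00000170558, GRCh38 chromosome 18, 27932879 to 28177946, minus strand) had 10665, 10811 and 11180 normalized counts in GFP cells and 8953, 9133 and 9046 in RBFOX1 cells. All 3 RBFOX1 libraries lay below all 3 GFP libraries, but the difference was small, with a log2 fold change of -0.27 (SE 0.046, adjusted p = 5.97e-05, edgeR). Per kilobase of countable exon, CDH2 ranked 1 among the 76 members in both groups, at 2711 normalized counts per kilobase in GFP and 2252 in RBFOX1 cells.

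CDH4 (R-cadherin, ENSG00000179242, chromosome 20, 61252261 to 61940617, plus strand), known from the developing brain and retina, had 522.7, 583.9 and 627.9 normalized counts in GFP cells and 152.4, 115.5 and 140.6 in RBFOX1 cells. The groups stood well apart, at 578 ± 52.8 against 136 ± 18.9 (SD, n = 3), and the change was -2.09 on the log2 scale (SE 0.102, adjusted p = 1.16e-12, edgeR). Relative to CDH2, CDH4 went from 0.0319 ± 0.00221 to 0.00906 ± 0.00134 per kilobase (SD, n = 3). The exact two-sided permutation p of this ratio was 0.1, the smallest that 3 against 3 libraries allow.

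CDH1 (ENSG00000039068, chromosome 16, 68737292 to 68835537, plus strand) was barely detected in either group. It had 0, 1 and 0 counts in GFP cells and 3, 4 and 5 in RBFOX1 cells. The test called it higher (adjusted p = 0.00438, edgeR), and the summed counts, 1 against 12, gave a ratio of 16.3 after scaling, with an exact 95% counting interval from 2.41 to 695. At 1.00 normalized count per kilobase in RBFOX1 cells it stood far below CDH2. Of the 4 epithelial markers examined beside it, KRT5 and KRT19 rose, ESRP1 fell and EPCAM did not pass the test, and their summed level was 139 to 187 normalized counts in GFP and 158 to 184 in RBFOX1 libraries. Among protein-coding genes tested 30.3% rose and 28.8% fell, and the part of the 4 markers in the CDH1 counts was not tested. CDH15 (M-cadherin of muscle) averaged 4.36 normalized counts with GFP and 6.34 with RBFOX1 (adjusted p = 0.28, edgeR), and CDH3 (P-cadherin) had at most 3 counts in any library.

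Among the type II cadherins, CDH11 and CDH24 stood at similar counts in GFP cells, whereas in RBFOX1 cells CDH11 alone took most of the counts of the group. Of the 7 type II members tested, 3 rose and 3 fell (85.7%, against 59.1% of protein-coding genes tested), with a median log2 fold change of -0.63. The median sits among low-count genes and says little of the sum, which went from 205 ± 23.6 to 1220 ± 17.2 normalized counts (SD, n = 3).

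CDH11 (OB-cadherin, ENSG00000140937, chromosome 16, 64943753 to 65126112, minus strand), the cadherin of osteoblasts and mesenchymal cells, had 75.3, 57.2 and 64.3 normalized counts in GFP cells. In RBFOX1 cells it had 1005, 1008 and 987.1, so the groups did not overlap. The change was 3.89 on the log2 scale (SE 0.090, adjusted p = 1.54e-17, edgeR), the largest fitted rise among the 76 members. Across the alternative fits it stayed between 3.81 and 4.04. Per kilobase CDH11 moved from rank 34 to rank 6 of the 76, from 10.1 to 155 normalized counts per kilobase, and its level relative to CDH2 rose from 0.00375 ± 0.000569 to 0.0687 ± 0.000975 (SD, n = 3, exact permutation p = 0.1, the smallest possible). Its share of type II counts was 32 ± 1.34% in GFP and 82 ± 0.341% in RBFOX1 cells.

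CDH24 (ENSG00000139880, chromosome 14, 23047062 to 23057538, minus strand), a type II cadherin that binds catenins, also rose. It had 63.7, 51.4 and 53.7 normalized counts in GFP cells and 157.8, 164.3 and 147.9 in RBFOX1 cells, a log2 fold change of 1.44 (SE 0.129, adjusted p = 1.24e-08, edgeR), with no overlap between the groups. CDH8 (ENSG00000150394, chromosome 16, 61647242 to 62037035, minus strand), a cadherin of brain circuits, went the other way. It had 46.1, 38.5 and 34.8 normalized counts in GFP cells and 25.4, 22.2 and 28.3 in RBFOX1 cells, a log2 fold change of -0.67 (SE 0.213, adjusted p = 0.013, edgeR), and the call was lost without GFP replicate 1, without RBFOX1 replicate 2 and in DESeq2.

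The remaining type II calls rested on few counts. CDH5 (VE-cadherin), the junction cadherin of endothelium, was looked up after its values were seen. It had 2, 4 and 2 counts in GFP and 9, 14 and 16 in RBFOX1 libraries (log2 fold change 2.65, SE 0.471, adjusted p = 9.28e-05, edgeR). Of 5 endothelial markers, 4 were tested and 3 rose (75%, against 30.3% of protein-coding genes tested). The summed level of the 5 went from between 106 and 141 normalized counts to between 387 and 431. PECAM1 rose by 2.99 and TEK by 1.52 on the log2 scale. VWF rose from 2, 2 and 1 counts in GFP to 10, 29 and 28 in RBFOX1 libraries. KDR did not pass the test and ERG was near 0 in both groups. The part of these genes in the CDH5 counts was not tested. CDH12, a brain cadherin, fell by 2.11 on the log2 scale (SE 0.521), but the value rested on few counts and was -1.51 without RBFOX1 replicate 3 and -2.85 without RBFOX1 replicate 2. CDH18, another brain cadherin with a mean under 20 normalized counts, fell too, with overlapping libraries and a call that 7 alternative fits lost, whereas CDH10 did not pass the test (log2 fold change -0.63, SE 0.49).

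Outside the classical families, CDH13 was the most abundant cadherin after CDH2 in GFP cells and fell about 4-fold. CDH13 (T-cadherin, ENSG00000140945, chromosome 16, 82626965 to 83800640, plus strand) is anchored to the membrane by a lipid and has no cytoplasmic tail. It had 8240, 8598 and 8202 normalized counts in GFP cells and 1995, 1974 and 2109 in RBFOX1 cells. The groups did not overlap, and the log2 fold change was -2.04 (SE 0.050, adjusted p = 3.53e-17, edgeR), a 4.11-fold fall. Per kilobase it went from 1060 to 257 normalized counts per kilobase, passing from rank 2 to rank 3, below PCDHB5. CDH23, a cadherin of hair-cell links, had 1, 0 and 3 counts in GFP and 4, 8 and 9 in RBFOX1 libraries, a ratio of summed counts of 7.12 with an exact 95% counting interval from 2.40 to 28.5 (adjusted p = 0.00269, edgeR). CDH26 had at most 3 counts in every library.

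**Figure D1:**
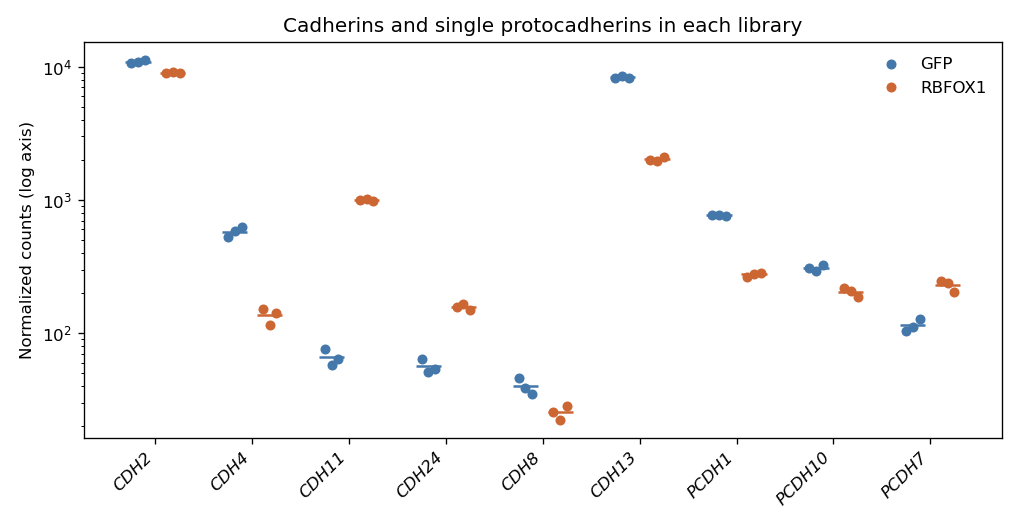
Normalized counts of 9 cadherins and single protocadherins (x axis) on a log axis, with 1 point per library and a bar at the mean of the 3 GFP (blue) and 3 RBFOX1 (orange) libraries. CDH11 rises 14.8-fold while CDH13 falls from 8347 to 2026, and in each of the 9 genes the groups do not overlap.

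Of the 13 single protocadherins, which lie outside the clusters, 8 were tested, of which 2 rose and 3 fell. The share called was 62.5%, against 59.1% of protein-coding genes tested. The median log2 fold change was -0.56. PCDH1 (ENSG00000156453, chromosome 5, 141853090 to 141879246, minus strand), a delta-1 protocadherin of epithelia and vessels that lies past the end of the PCDHG cluster, was the most abundant. It had 764.9, 766.1 and 762.7 normalized counts in GFP cells and 263.0, 278.7 and 284.0 in RBFOX1 cells. The replicates were close and the groups far apart, with a log2 fold change of -1.47 (SE 0.069, adjusted p = 7.52e-13, edgeR), and the alternative fits gave -1.49 to -1.42.

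PCDH7 (ENSG00000169851, chromosome 4, 30720369 to 31146805, plus strand), the other abundant delta-1 protocadherin, rose. It had 103.8, 110.9 and 128.5 normalized counts in GFP cells and 246.7, 237.6 and 202.7 in RBFOX1 cells (log2 fold change 1.00, SE 0.113, adjusted p = 3.42e-07, edgeR). These delta-1 genes thus moved in opposite directions. PCDH10 (ENSG00000138650, chromosome 4, 133149294 to 133208606, plus strand), a delta-2 protocadherin of axon tracts, had 305.4, 291.9 and 323.4 normalized counts in GFP cells and 217.7, 207.6 and 187.2 in RBFOX1 cells, a log2 fold change of -0.60 (SE 0.089, adjusted p = 1.13e-05, edgeR). The other called genes, both delta-2, were PCDH18, which rose (0.74 on the log2 scale, SE 0.183), and PCDH17, which fell (-0.86, SE 0.24), a call lost in DESeq2.

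**Figure D2:**
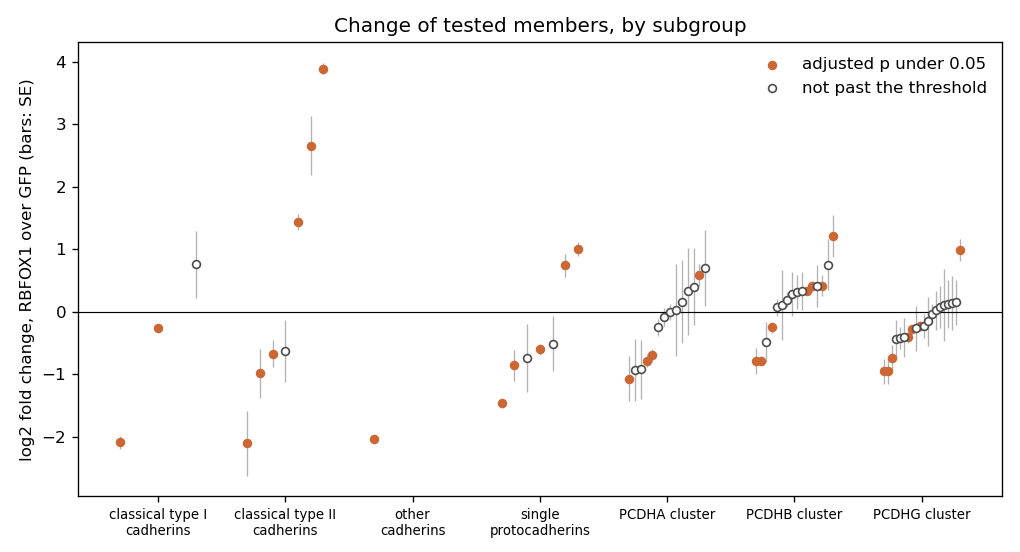
Fitted log2 fold change of RBFOX1 over GFP (y axis, bars 1 SE) for 68 tested members by subgroup (x axis), filled where the adjusted p was under 0.05. The 8 members not drawn had no library above 3 counts in at least 1 group. CDH11 lies highest at 3.89, CDH12 (-2.11), CDH4 (-2.09) and CDH13 (-2.04) lie lowest within their errors of each other, and the clustered genes lie between -1.07 and 1.21.

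The clustered protocadherins differ in how they can be counted. Each PCDHA and PCDHG gene has its own first exon and shares its last exons with the rest of its cluster, whereas a PCDHB gene has an exon of its own. Read pairs in shared exons belong to several genes and are not counted, so between 46.3 and 51.3% of the exon bases of a PCDHA transcript and between 51.6 and 55.2% of those of a PCDHG transcript could give counts. Pairs assigned to more than one gene were 8.89 to 9.35% of all pairs in GFP and 6.89 to 7.94% in RBFOX1 libraries, and their part in the cluster counts was not tested. All 53 clustered members were tested, of which 35 had a mean under 50 normalized counts, and 6 rose and 12 fell. Together 34.0% were called, against 46.6% of all genes tested and 59.1% of protein-coding genes.

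In the PCDHA cluster (chromosome 5, 140786136 to 141012347, plus strand) both C-type genes fell, and of the 13 others PCDHA2 rose (a call lost in DESeq2) and PCDHA10 fell. Of the 15 genes 26.7% were called, against 59.1% of protein-coding genes tested. The median log2 fold change of the 15 genes was -0.08, or -0.01 with PCDHA8 set at no change. PCDHA8 had at most 3 counts in each RBFOX1 library, and its GFP mean lay below what 3 counts were worth there on average. PCDHAC1 (ENSG00000248383) had 187.0, 207.9 and 200.2 normalized counts in GFP cells and 105.2, 119.9 and 114.1 in RBFOX1 cells, a log2 fold change of -0.79 (SE 0.105, adjusted p = 2.97e-06, edgeR). PCDHAC2 (ENSG00000243232) had 228.3, 218.4 and 204.4 in GFP cells and 143.3, 133.2 and 129.7 in RBFOX1 cells, a log2 fold change of -0.70 (SE 0.100, adjusted p = 6.86e-06, edgeR). The C-type genes, the last of the cluster, are read from their own promoters and are known to be used constitutively in many neurons, unlike the alternate genes.

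PCDHA12 (ENSG00000251664), the alternate gene with the highest count, did not pass the test, with 102.6, 121.5 and 84.3 normalized counts in GFP cells and 83.4, 97.7 and 104.1 in RBFOX1 cells. The libraries overlapped, and its log2 fold change was -0.08 (SE 0.143, adjusted p = 0.687, edgeR). PCDHA10 (ENSG00000250120) had 16.4, 11.7 and 15.8 against 5.44, 8.88 and 6.39 normalized counts (log2 fold change -1.07, SE 0.361, adjusted p = 0.0195, edgeR), a call lost without GFP replicate 1, without RBFOX1 replicate 1, without RBFOX1 replicate 3 and in DESeq2. Summed over the cluster, counts went from 795 ± 11.3 to 608 ± 13.9 (SD, n = 3), without overlap (exact permutation p = 0.1).

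In the PCDHB cluster (chromosome 5, 141051374 to 141249365, plus strand) the sum hardly moved while single genes moved apart. The sum was 2378 ± 34.3 (SD, n = 3) with GFP and 2477 ± 64.2 (SD, n = 3) with RBFOX1 (exact permutation p = 0.2). Of the 16 genes 4 rose, 3 fell and 9 did not pass the test, with a median log2 fold change of 0.30. The share called was 43.8%, against 59.1% of protein-coding genes tested. PCDHB5 (ENSG00000113209, 141135206 to 141138615) rose slightly from 989.5, 942.4 and 901.8 normalized counts to 1192, 1220 and 1179 (log2 fold change 0.34, SE 0.057, adjusted p = 4.8e-05, edgeR). PCDHB3 (ENSG00000113205, 141100473 to 141103827) fell from 530.6, 551.2 and 528.8 to 299.3, 307.5 and 320.5 (log2 fold change -0.79, SE 0.072, adjusted p = 1.56e-08, edgeR). Neither gene's libraries overlapped between the groups.

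Their shares of the cluster's counts moved accordingly. PCDHB5 held 39.7 ± 1.86% in GFP and 48.3 ± 0.876% in RBFOX1 cells, and PCDHB3 held 22.6 ± 0.203% and 12.5 ± 0.754% (SD, n = 3). Per kilobase, PCDHB3 was 0.579 ± 0.0290 of PCDHB5 in GFP and 0.263 ± 0.0119 in RBFOX1 cells (exact permutation p = 0.1). PCDHB14 (ENSG00000120327, 141223343 to 141227759) rose from 211.3, 204.4 and 233.9 normalized counts to 284.8, 296.4 and 277.6 (log2 fold change 0.40, SE 0.087, adjusted p = 0.000678, edgeR). PCDHB6 (ENSG00000113211, 141150057 to 141153287), a low-count gene, rose from 8.5, 5.84 and 6.32 to 14.5, 18.9 and 16.4 (log2 fold change 1.21, SE 0.339, adjusted p = 0.00584, edgeR), a call lost in DESeq2.

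The other calls of the cluster were PCDHB7 (higher) and PCDHB8 and PCDHB9 (lower). Those of PCDHB7 and PCDHB9 were each lost under several alternatives. PCDHB genes are close copies of each other and reads that align to several places are not counted, so the split between them is uncertain. The pseudogene PCDHB17P also fell, from 100.1 ± 9.35 to 47.5 ± 8.06 normalized counts (log2 fold change -1.07, SE 0.157, adjusted p = 1e-05, edgeR). It was the single call among 5 cluster pseudogenes (20%, against 46.6% of all genes tested).

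Most promoters of this cluster share a short run of letters. Of 9-letter runs in the 250 bases before the RefSeq start (GRCh38.p14), GGTGGCGCT was found in more clustered promoters than any other, on either strand. It stood in 12 of the 14 PCDHB promoters that matched the RefSeq table, in 0 of 13 PCDHA and 0 of 20 PCDHG promoters, and in 144 of all 35116 promoters (0.41%). It holds the letters CGCT, known as the core of the conserved element at which the chromatin factor CTCF binds clustered protocadherin promoters. The run was chosen from these promoters as the most shared, and only exact matches were searched. The counts therefore do not say whether PCDHA and PCDHG promoters hold this element in another form. The lines show 60 bases around the run, in capitals, in a gene that fell (PCDHB3) and genes that rose (PCDHB5, PCDHB14).
PCDHB3 (chr5:141100379-141100438, plus strand): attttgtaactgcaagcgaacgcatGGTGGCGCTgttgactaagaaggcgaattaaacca
PCDHB5 (chr5:141135146-141135205, plus strand): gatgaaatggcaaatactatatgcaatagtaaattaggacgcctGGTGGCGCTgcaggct
PCDHB14 (chr5:141223249-141223308, plus strand): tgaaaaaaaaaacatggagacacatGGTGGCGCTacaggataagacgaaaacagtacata
The run began 69, 16 and 69 bases before the start in PCDHB3, PCDHB5 and PCDHB14. In PCDHB9, which fell, the run began 76 bases before the start, and in PCDHB7, which rose, 67 bases. PCDHB8, which fell, and PCDHB1, which did not pass the test, were without the run. Its part in the changes of these genes was not tested.

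In the PCDHG cluster (chromosome 5, 141330514 to 141512977, plus strand) 6 of the 22 genes fell, 1 rose and 15 did not pass the test. The share called was 31.8%, against 59.1% of protein-coding genes tested, and the median log2 fold change was -0.19. PCDHGC3 (ENSG00000240184), a C-type gene used widely outside neurons, had 535.4, 639.9 and 625.8 normalized counts in GFP cells and 516.9, 494.1 and 463.9 in RBFOX1 cells (log2 fold change -0.29, SE 0.078, adjusted p = 0.005, edgeR). PCDHGB7 (ENSG00000254122) had 497.2, 576.9 and 568.9 against 513.3, 456.3 and 432.8 (log2 fold change -0.23, SE 0.080, adjusted p = 0.0219, edgeR). The PCDHGB7 libraries overlapped, and its call was lost without GFP replicate 2, without GFP replicate 3, without RBFOX1 replicate 2, without RBFOX1 replicate 3, under total-count scaling and in DESeq2.

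PCDHGA10 (ENSG00000253846) fell from 200.9, 237.1 and 221.2 normalized counts to 170.5, 167.6 and 158.0, without overlap (log2 fold change -0.40, SE 0.099, adjusted p = 0.00212, edgeR). The larger falls were in PCDHGB1, PCDHGA4 and PCDHGB2, 3 genes that follow each other near the start of the cluster, with log2 fold changes of -0.95, -0.74 and -0.95, of which PCDHGA4's call was lost without RBFOX1 replicate 3 and in DESeq2. PCDHGC5, the last gene of the cluster, was picked out after its values were seen as its 1 called rise. It had 38.2, 43.2 and 33.7 normalized counts in GFP cells and 88.9, 83.3 and 61.2 in RBFOX1 cells (log2 fold change 0.98, SE 0.181, adjusted p = 0.000133, edgeR). Of the other C-type genes of the cluster, PCDHGC3 fell and PCDHGC4 did not pass the test (-0.16, SE 0.39). The cluster's sum went from 1874 ± 147 to 1568 ± 124 normalized counts (SD, n = 3, exact permutation p = 0.1), with the lowest GFP library, replicate 1, at 1705 and the highest RBFOX1 library, replicate 1, at 1698.

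**Figure D3:**
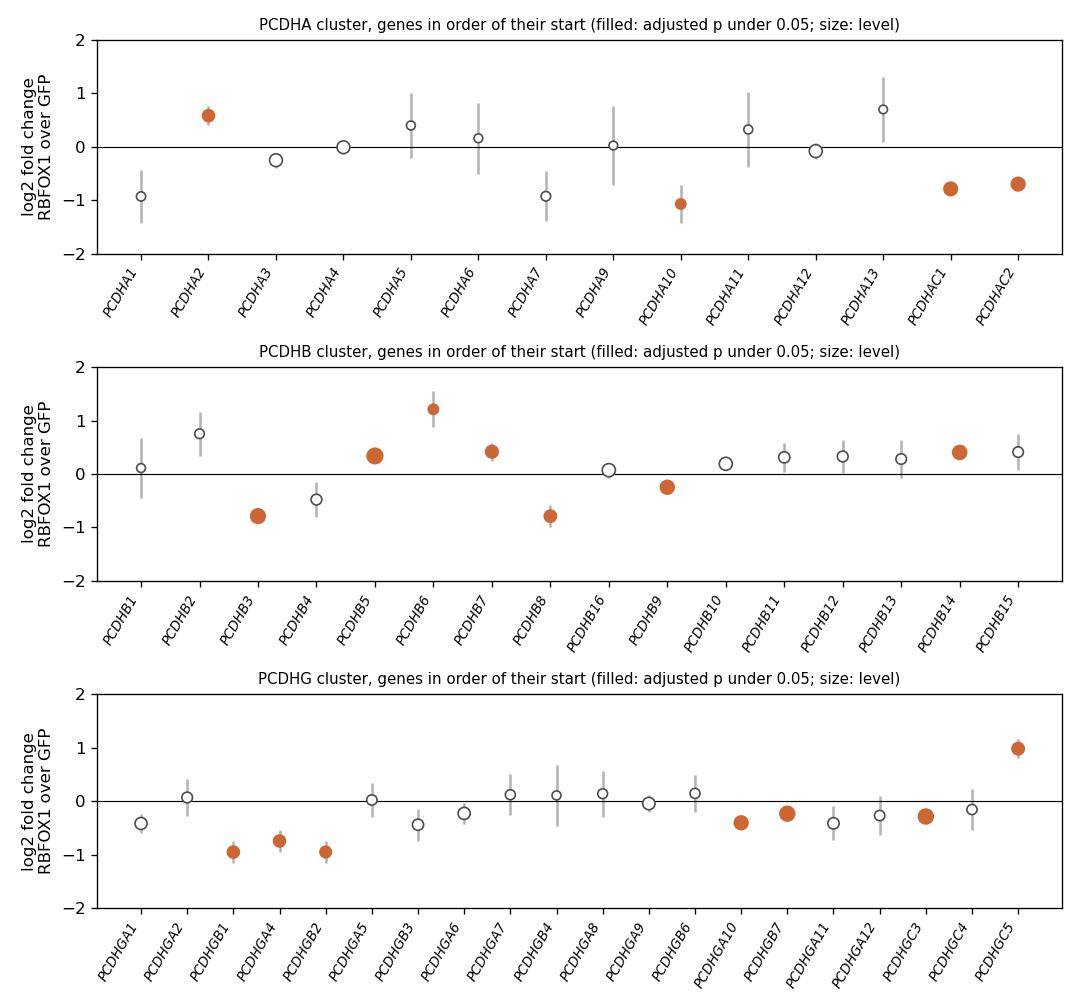
Fitted log2 fold change of RBFOX1 over GFP (y axis, bars 1 SE) for 50 genes of the PCDHA, PCDHB and PCDHG clusters in the order of their starts (x axis), filled where the adjusted p was under 0.05, with larger points for higher mean counts. Called falls and called rises are mixed in the PCDHB cluster. The PCDHA cluster has 1 called rise, PCDHA2 (0.58), beside falls such as PCDHAC1 (-0.79). The PCDHG cluster has 1, PCDHGC5 (0.98), beside falls such as PCDHGB1 (-0.95).

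**Figure D4:**
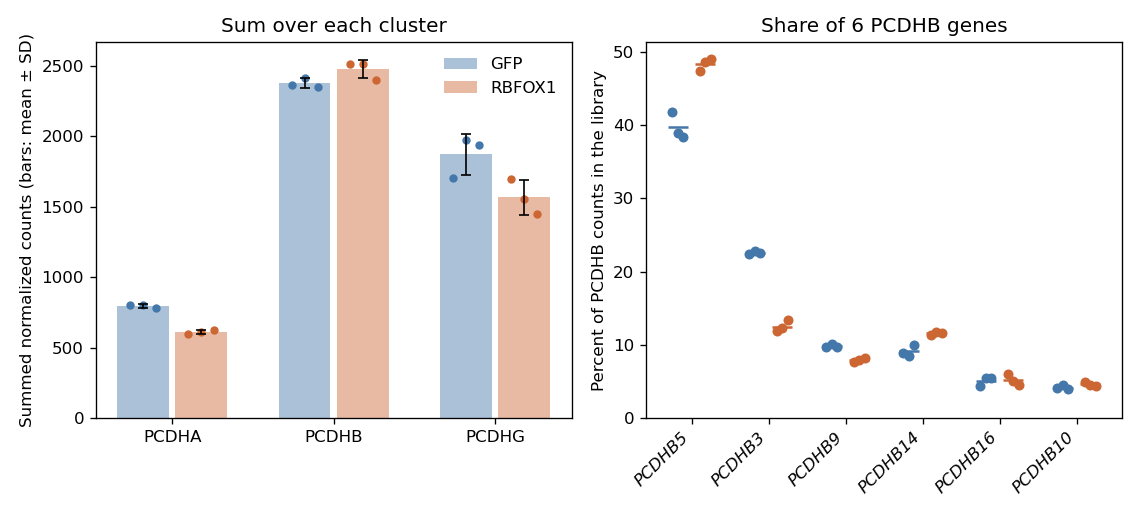
Left, normalized counts summed over each cluster, with 1 point per library and bars at the mean ± SD of 3 libraries. Right, the percent of a library's PCDHB counts on 6 PCDHB genes, with PCDHB5 rising from 39.7 to 48.3% and PCDHB3 falling from 22.6 to 12.5%.

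TGCATG, the RBFOX1 motif, was searched in the annotated 3′ UTR of each member's canonical transcript, since RBFOX1 in the cytoplasm is known to bind there. It occurred in 10 of 23 tested cadherins and single protocadherins (43.5%, median 3′ UTR of 1892 bases) and in 10 of 16 PCDHB genes (62.5%, median 1306 bases), against 36.5% of 14049 protein-coding genes tested (median 1298 bases). The PCDHA genes share 1 3′ UTR with 2 sites, and the PCDHG genes another with 2 sites. Sites occurred in genes that fell and in genes that rose. CDH11 and CDH13, which had the lowest adjusted p among rises and falls, and PCDH1 had none, whereas CDH4 had 3 and PCDH10 had 4. Sites are shown with 12 bases on each side, the motif in capitals, for a gene that fell 4.27-fold, a gene that rose and the shared PCDHA 3′ UTR.
CDH4 (chr20:61938356-61938361, plus strand): gcctgtgctcacTGCATGagaaaactcaga
CDH4 (chr20:61940265-61940270, plus strand): tccgatttttttTGCATGtttctttttgaa
CDH24 (chr14:23047362-23047367, minus strand): cccagacctgccTGCATGgttccatccatt
PCDHA genes (chr5:141011057-141011062, plus strand): ggggctgcctctTGCATGtattactaaata
Of the 10 unclustered members with a site, 4 rose and 5 fell (90%), and of the 13 without one, 3 rose and 4 fell (53.8%). The PCDHB genes had the opposite order. Of the 10 with a site, 2 rose and 1 fell (30%), and of the 6 without one, 2 rose and 2 fell (66.7%). Over protein-coding genes tested 59.1% were called, and over all genes tested 46.6%. Calls were more frequent among abundant members. Unclustered members without a site included CDH1, CDH3, CDH23, CDH26 and PCDH9, and those with a site CDH5 and PCDH15, all with few counts. The part of level in these shares was not tested.

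Genes that work with cadherins changed in both directions. Of 18 tested catenin and junction plaque genes, 6 rose and 7 fell, together 72.2%. Over all genes tested 46.6% were called, and over protein-coding genes 59.1%. CTNNB1 (beta-catenin) fell by 0.12 (adjusted p = 0.0444, edgeR) and CTNND1 (p120-catenin) fell by 0.15 (adjusted p = 0.0164, edgeR) on the log2 scale, calls that 10 and 3 of 15 alternative fits lost. AFDN (afadin) went from 1680 ± 58.2 to 880 ± 59.5 normalized counts (SD, n = 3), a log2 fold change of -0.92 (SE 0.059). The nectins went different ways. NECTIN3 (-0.87, SE 0.057) and NECTIN1 (-0.75, SE 0.153) fell, the low-count NECTIN4 rose (1.23, SE 0.242), and NECTIN2 did not pass the test (-0.02, SE 0.068). PKP2, a desmosomal plakophilin, rose from 362 ± 18.1 to 1033 ± 51.2 (1.51, SE 0.068). AFDN, NECTIN3, NECTIN1, NECTIN4 and PKP2 each had an adjusted p of 0.000405 or less (edgeR).

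Of 16 tested genes of the wider cadherin superfamily, 7 rose and 4 fell, together 68.8%, against 59.1% of protein-coding genes tested. FAT3, a giant cadherin of neuronal morphology, rose from 12 ± 0.645 to 354 ± 20.7 normalized counts (log2 fold change 4.84, SE 0.141) and CLSTN2, a synaptic calsyntenin, from 260.5 ± 30.0 to 2408 ± 59.3 (3.23, SE 0.072). DCHS1, a planar polarity cadherin, rose by 0.83 on the log2 scale (SE 0.069), and DSG2, the desmosomal desmoglein of simple epithelia, fell from 2942 ± 368 to 1225 ± 106 (-1.26, SE 0.078). The adjusted p of these 4 was at most 4.83e-09 (edgeR).

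Of 12 genes known to act on protocadherin promoters or cluster chromatin, 8 rose (66.7%) and 4 did not pass the test. Of all genes tested 23.7% rose, and of protein-coding genes tested 30.3%. CTCF rose from 602 ± 19.5 to 884 ± 8.45 normalized counts (0.56, SE 0.060), and the cohesin subunits RAD21 (0.83, SE 0.067) and SMC1A (1.06, SE 0.069) rose with it, as did the DNA methyltransferase gene DNMT3B (1.31, SE 0.145). Among 17 genes of cadherin cleavage and protocadherin signalling, 4 rose (23.5%) and 10 fell (58.8%). Of protein-coding genes tested 28.8% fell, and of all genes tested 22.9%. ADAM10, which sheds cadherins, fell from 3607 ± 238 to 2258 ± 116 (-0.67, SE 0.056), nicastrin (NCSTN), a subunit of gamma-secretase, by 0.70 on the log2 scale, and CYFIP2 of the WAVE complex by 0.58, while its partner ABI2 rose (0.61, SE 0.067).

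Of 16 tested protein-coding neighbours of the clusters on chromosome 5, 1 rose and 5 fell, together 37.5%, against 59.1% of protein-coding genes tested. ZMAT2 rose by 0.24 (SE 0.055), and RELL2 (-0.61, SE 0.095), FCHSD1 (-0.58, SE 0.076) and ARAP3 (-0.47, SE 0.092) fell, with adjusted p-values of 0.00105 or less (edgeR). PCDH1, whose log2 fold change was -1.47, lies past the PCDHG cluster too.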

How the data were processed

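RNA of 3 GFP and 3 RBFOX1 A172 libraries was rRNA-depleted and sequenced as stranded 100 bp paired-end reads. Alignment by the authors used HISAT2 and GRCh38, and counting used HTSeq-count (intersection-strict) on Ensembl annotation v87. The deposited values are unnormalized counts per gene; versions of HISAT2, HTSeq and the authors' DESeq2 are not given in the sources used here. The deposited DESeq2 comparison (mean level, fold changes and p-values made by the authors) was not used.

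TMM scaling and the two-sided quasi-likelihood F-test of edgeR (version 4.0.16 under R 4.3.3) were applied to genes with at least 10 summed counts, with Benjamini-Hochberg adjustment over all 20536 genes and a threshold of 0.05. Library sizes were totals over all listed genes. A first run with sizes from tested genes only was replaced, after its count of calls had been seen, to follow an earlier analysis of these counts, and is kept as an alternative. SEs were derived from the fold change and the F statistic. The edgeR p-values set the difference between the groups against the spread between these libraries. Where every library of a group had 3 counts or fewer, the gene's fitted fold is not given and enters only subgroup medians, and intervals cover counting error only. Exact permutation tests of 3 against 3 libraries cannot go below 0.1.

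Coordinates, exon lengths and 3′ UTRs came from GENCODE 44 (GRCh38), later than the counting annotation; 98.1% of identifiers matched. Named were members called whose log2 fold change was 1 or more in size, with a mean of at least 10 normalized counts, the 3 most abundant of each subgroup, CDH1, CDH2 and CDH11, and up to 4 called partners per list with a mean of at least 50; others named were chosen after their values were seen. Members and lists were chosen with earlier results of these data known. An item of the promoter and chromatin list and 1 of the blood cell list are not reported here. DESeq2 (1.42.0), limma-voom (limma 3.58.1), other scalings and filters, a replicate block and omission of each library were alternatives. The procedure was tested on simulated data. Changes were put into a small part of the genes, none of them at the lowest counts. The recovery of changes in low-count genes was therefore not covered.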

Additional observations from a re-analysis of the deposited data

How the results depend on the processing

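Of the 34 members called, 24 kept their call in each of the 15 alternative fits that tested them, 10 lost it in at least 1, and 0 turned direction. DESeq2 called 10 members higher and 14 lower. A minimum log2 fold change of 1 in either direction left 6 higher and 5 lower. The 6 include CDH1 and CDH23, which had at most 3 counts in each GFP library. Leaving out 1 library gave 11 to 13 higher and 17 to 20 lower. With the replicate number as a block, 13 members were higher and 21 lower. Same-numbered libraries had correlations of -0.17, 0.03 and -0.06 in their deviations from the group means, so the numbers were not taken as pairs. With library sizes from tested genes, an alternative added after seeing the data, the counts were 13 and 21 again.

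Medians of the smallest subgroups rest on genes with few counts. That of the type I cadherins was 0.76, -1.16 with a minimum of 50 counts, and -0.27 to 0.96 with a library left out. That of the 3 other cadherins, 1 of which had at most 3 counts in every library, was -0.13, -2.02 with a minimum of 50 counts, 0.042 with the replicate block, and 0.089 to 0.97 with a library left out. The log2 fold change of PCDHA12 was 0.019 without GFP replicate 2 and -0.19 without GFP replicate 3, the ends of its range with a library left out. Under total-count scaling the log2 difference of the summed PCDHA counts was -0.33 (main -0.39; -0.40 to -0.37 with a library left out) and that of the PCDHB counts 0.11 (main 0.06; 0.05 to 0.08). The cause was not tested.

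With the fold minimum, the partner genes higher and lower were 2 and 1 for catenins, 4 and 1 for the superfamily, 2 and 0 for promoter and chromatin genes, 0 and 0 for cleavage and signalling, and 0 and 0 for neighbours. The catenin gene lower was CTNNA3, with at most 3 counts in each RBFOX1 library. The superfamily genes higher include CDHR1, with at most 1 count in each GFP library. The 7 catenin genes lower were 5 with the replicate block, total-count scaling, no filter, a minimum of 50 counts and DESeq2, and 5 to 6 with a library left out. At an adjusted p under 0.01, 4 catenin genes were lower and 2 cleavage and signalling genes higher, and DESeq2 also gave 2 of the latter (2 to 4 with a library left out). Of the neighbours, 3 were higher under total-count scaling, 2 with a minimum of 50 counts and 1 to 3 with a library left out. Every scaling moved the median of all genes by less than 0.1 on the log2 scale. Depth limits the 49 members under 50 mean normalized counts most.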
